A study of Mus musculus with 2 samples.

Results

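The transcription factor genes Wt1, Lmx1b, Foxc1, Foxc2 and Tcf21, known for their roles in podocytes, were followed across the nuclei of developing mouse kidneys. They were chosen by name, as the rows of both count matrices that carry these symbols, and make up 5 of the 32285 gene identifiers measured. Single-nucleus RNA sequencing with the Chromium Single Cell 3' chemistry was available for 2 libraries, 1 embryonic (E18.5, the embryonic day) and 1 postnatal (P3, the postnatal day), from kidneys pooled over male and female mice. The number of mice is not given. The E18.5 mice carried floxed Myc and Mycn alleles, labelled Mycf/f;Mycnf/f, with no Cre, on a mixed background, and the P3 mice were labelled Wild type, C57BL/6J. The study's methods, in contrast, describe the mice of both ages as of mixed background. Neither group carried a Cre transgene or received a treatment. The age of the mice cannot be told apart from their genotype and background, from the library or from the Cell Ranger release, and with 1 library per age no test between the ages was possible.

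Podocytes are the epithelial cells of the glomerulus whose interdigitating foot processes, joined by the slit diaphragm, form part of the filtration barrier. They arise from nephron progenitors through early nephron epithelium. Wt1 encodes a zinc finger protein that is needed in nephron progenitors and again in podocytes, Lmx1b a LIM-homeodomain protein whose human counterpart is mutated in nail-patella syndrome, Foxc1 and Foxc2 closely related forkhead proteins, and Tcf21 a basic helix-loop-helix protein of podocytes and renal stroma.

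In the GENCODE M21 annotation of the GRCm38 build, Wt1 (ENSMUSG00000016458) lies at chr2:105126529-105173616 on the plus strand with 10 exons and 43994 intron bases. Lmx1b (ENSMUSG00000038765) lies at chr2:33560965-33640511 on the minus strand with 8 exons and 74757 intron bases. The forkhead genes each have 1 exon, Foxc1 (ENSMUSG00000050295) at chr13:31806633-31812476 and Foxc2 (ENSMUSG00000046714) at chr8:121116171-121118895, both on the plus strand. Tcf21 (ENSMUSG00000045680) lies at chr10:22817281-22820174 on the minus strand, with 2 exons and 1627 intron bases. Nuclear RNA is rich in unspliced transcripts, and whether intronic reads were counted is not stated in the sources used here, so levels were compared between nuclei and not between these genes. The antisense gene Gm10824 (chr10:22815749-22823330) spans Tcf21 on the opposite strand and had 2394 and 1377 UMIs (unique molecular identifiers, each standing for 1 captured transcript) in all barcodes at E18.5 and P3. Since use of strand in the counting is not stated, Tcf21 and Gm10824 may share reads.

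The promoters of 3 members were matched in RefSeq (GRCm38.p6) and are shown so that the start regions of the members can be compared, without bases inside the annotated transcript. Capitals mark the CCAAT letters of a CAAT box, written ATTGG where they lie on the opposite strand. The Lmx1b window is chr2:33641099-33641348 on the minus strand, that of Foxc1 chr13:31806396-31806632 on the plus strand, and that of Tcf21 chr10:22820175-22820393 on the minus strand.
Lmx1b: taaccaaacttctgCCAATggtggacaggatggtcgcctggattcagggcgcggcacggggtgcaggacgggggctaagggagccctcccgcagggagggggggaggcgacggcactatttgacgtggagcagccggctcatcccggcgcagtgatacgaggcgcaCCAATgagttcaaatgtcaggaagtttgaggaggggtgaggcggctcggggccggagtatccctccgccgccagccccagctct
Foxc1: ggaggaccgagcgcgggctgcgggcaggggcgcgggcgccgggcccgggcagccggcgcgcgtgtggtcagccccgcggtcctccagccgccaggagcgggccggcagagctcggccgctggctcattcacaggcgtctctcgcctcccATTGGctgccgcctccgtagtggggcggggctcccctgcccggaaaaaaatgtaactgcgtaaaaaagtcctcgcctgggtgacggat
Tcf21: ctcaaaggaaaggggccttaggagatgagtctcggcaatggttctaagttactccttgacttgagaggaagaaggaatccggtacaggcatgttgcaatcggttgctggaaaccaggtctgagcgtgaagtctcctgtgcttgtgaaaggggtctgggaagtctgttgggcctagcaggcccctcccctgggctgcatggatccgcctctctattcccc

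The Foxc1 window was the richest in G and C, at 72.6% with 29 CpG dinucleotides in 237 bases, followed by Lmx1b at 65.2% with 19 in 250 bases and Tcf21 at 54.8% with 5 in 219 bases. The median over all RefSeq promoters was 52%. Both strands of the 250 bases before each start were searched for CAGCTG, a core of sites of basic helix-loop-helix proteins, for TAATTA of homeodomain proteins, for GTAAACA of forkhead proteins, for GTGGGNG of zinc finger proteins, and for CCAAT. Of these, CCAAT was present, at positions -236 and -84 before the Lmx1b start and at -101 on the opposite strand of the Foxc1 window, and no searched motif was present for Tcf21. Positions count back from the RefSeq start, which lies 13 bases inside the annotated Foxc1 transcript and 31 bases inside that of Tcf21. For Lmx1b the RefSeq start lies upstream of the annotated gene, whose end on the minus strand is at 33640511, so its window does not adjoin the transcript described above. Over 27025 promoters of the same length, CCAAT was found in 34.5%, CAGCTG in 12.8%, TAATTA in 4.90%, GTAAACA in 3.09% and GTGGGNG in 27.8%.

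After quality limits and removal of called doublets, 17749 nuclei with 56336462 UMIs remained at E18.5 and 9716 with 45517380 UMIs at P3, with a median of 2920 and 4037.5 UMIs per nucleus. The libraries shared 69 barcodes. Nuclei were clustered without the 5 genes, 20 other transcription regulators, 8 neighbouring genes and Gm10824, and clusters were named "X-like" from marker lists that hold none of them. This gave 12 named classes at each age and left 4004 and 1917 nuclei unnamed. Most of these lay in 1 cluster of low depth at each age, 2804 nuclei with a median of 1254 UMIs at E18.5 and 1610 with 974.5 at P3. The other unnamed clusters had medians of 3118 to 7352.5 UMIs, and 2 of 34 nuclei each at E18.5 were unnamed for their high depth. Podocyte-like nuclei numbered 747 at E18.5 and 207 at P3, with a median of 3021 and 4495 UMIs. The class was named by its 14 podocyte markers, so their levels describe it and are no test of the name. They summed to 60307 and 72283 CPM (counts per 1000000 UMIs), and 13 of 14 were raised in the larger podocyte-like cluster of each age. In a smaller podocyte-like cluster with Ndnf among its leading genes, 7 of 14 were raised at E18.5 and 13 of 14 at P3. Of other lists, the early nephron list summed to 239 and 224 CPM in podocyte-like nuclei against 824 and 831 in early nephron-like nuclei. The endothelial list summed to 294 and 268 CPM against 7779 and 9736 in endothelium-like nuclei, the interstitial list to 1220 and 905 against 3953 and 4269, and the proximal tubule list to 402 and 486 against 8293 and 13288. Their part in the results was not tested.

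Over all kept nuclei, Wt1 had 19073 UMIs in 37.4% of nuclei at E18.5 and 13404 UMIs in 33.1% at P3. Tcf21 had 7128 UMIs in 29.0% and 4166 UMIs in 26.6% of nuclei. Lmx1b had 1389 and 1052 UMIs, Foxc1 1693 and 597, and Foxc2 1300 and 738, each in at most 8.72% of nuclei. The members differed in how much of their RNA lay in podocyte-like nuclei, which held 4.21% of nuclei and 4.49% of UMIs at E18.5 and 2.13% and 2.18% at P3. Of the Lmx1b UMIs 39.3% and 34.9% lay there, of the Wt1 UMIs 26.8% and 20.6%, of the Foxc2 UMIs 10.6% and 13.3%, of the Foxc1 UMIs 7.50% and 12.7%, and of the Tcf21 UMIs 9.79% and 5.11%. Most transcripts of each member were thus counted in other nuclei.

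Levels below, in CPM, are the UMIs of a gene summed over a class and scaled to the UMIs of that class. Intervals are 95% and exact, Poisson for a level, binomial for a share and conditional binomial for a ratio. They cover counting error only, not the spread between animals or libraries, and for levels and ratios not that between nuclei. In bulk sums of this kind more nuclei with a transcript and more transcripts per nucleus cannot be told apart.

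Wt1 was highest in podocyte-like nuclei at both ages, followed by the nephron progenitor- and early nephron-like classes. At E18.5 its level was 2020 CPM (1965 to 2076; 5104 UMIs) in podocyte-like nuclei, 697 CPM in nephron progenitor-like, 546 CPM in early nephron-like and 124 CPM in interstitium-like nuclei. Each of the 3 steps between these classes exceeded counting error, the smallest with a ratio of 1.28 (1.22 to 1.33) between nephron progenitor-like and early nephron-like nuclei. The early nephron-like class of this age pools a cluster of 1076 nuclei at 868 CPM, above the nephron progenitor-like level, with a cluster of 779 nuclei at 117 CPM in which 4 proximal tubule markers were raised. Below them the levels ran through 97.3 CPM in distal tubule-like, 93.5 in endothelium-like, 82.4 in loop of Henle-like, 76.8 in leukocyte-like, 73.8 in proximal tubule-like, 68.3 in mural-like, 57.0 in ureteric epithelium-like and 49.5 CPM in intercalated-like nuclei, and no neighbours in this order differed beyond counting error. At P3 a joint nephron progenitor- and early nephron-like class of 899 nuclei stood second, at 1379 CPM, and podocyte-like nuclei had 2.01 times (1.92 to 2.10) that level, at 2772 CPM (2670 to 2878; 2757 UMIs). A large gap followed, since the next classes were interstitium-like nuclei at 121 CPM and the separate early nephron-like class at 111 CPM. Intercalated-like (90.7 CPM), distal tubule-like (88.7 CPM) and leukocyte-like nuclei (84.8 CPM) did not differ from the class above each of them. The step from leukocyte-like to loop of Henle-like nuclei, at 53.7 CPM, was past counting error (1.58, 1.08 to 2.28). Below it no neighbours differed, with 48.9 CPM in endothelium-like, 45.2 in proximal tubule-like, 38.9 in mural-like and 32.6 CPM in ureteric epithelium-like nuclei.

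Lmx1b had the same leading order of classes. At E18.5 it stood at 216 CPM (198 to 235; 546 UMIs) in podocyte-like, 58.1 CPM in nephron progenitor-like and 22.8 CPM in early nephron-like nuclei. The steps were 3.72-fold (3.28 to 4.21) and 2.55-fold (2.13 to 3.08). At P3 the level was 369 CPM (332 to 409; 367 UMIs) in podocyte-like nuclei, 3.58 times (3.12 to 4.10) the 103 CPM of the joint class. All other named classes were at or below 6.13 CPM at E18.5 and 9.13 CPM at P3. They rested on at most 60 UMIs at E18.5 and 27 at P3, both reached in interstitium-like nuclei. Some rested on few, for example 3 UMIs or 0.965 CPM in endothelium-like nuclei at P3. Lmx1b had 0 UMIs in intercalated-like nuclei, which allows up to 10.6 CPM at E18.5 and 8.01 CPM at P3 (3 counts in the class), and in mural-like nuclei at P3, which allows up to 29.2 CPM.

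Foxc1 was spread more evenly at E18.5. It stood at 50.3 CPM (41.9 to 59.8, on 127 UMIs) in podocyte-like nuclei and at 47.6 CPM in mural-like nuclei. These did not differ beyond counting error (ratio 1.06, 0.704 to 1.63). The mural-like class was named by markers of pericytes and smooth muscle of vessels and by Ren1. Nephron progenitor-like nuclei had 34.7 CPM, early nephron-like 33.5, interstitium-like 25.6, loop of Henle-like 20.1, distal tubule-like 19.8, proximal tubule-like 19.7, endothelium-like 19.6, ureteric epithelium-like 14.4, leukocyte-like 13.7 and intercalated-like nuclei 7.08 CPM. The sole step between neighbours past counting error was that from early nephron-like to interstitium-like nuclei. At P3 podocyte-like nuclei had 76.4 CPM (60.2 to 95.7; 76 UMIs) and stood apart, at 3.99 times (2.92 to 5.45) the 19.1 CPM of the joint nephron progenitor- and early nephron-like class. The mural-like level, 19.5 CPM, rested on 2 UMIs at that age, in 28 nuclei led by Ren1. The remaining classes ran from 14.8 CPM in early nephron-like to 1.30 CPM, a single UMI, in distal tubule-like nuclei.

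Foxc2, the close relative of Foxc1, stood at 54.6 CPM (45.9 to 64.5; 138 UMIs) in podocyte-like nuclei at E18.5, 2.10 times (1.72 to 2.55) the 26.0 CPM of interstitium-like nuclei. Nephron progenitor-like nuclei followed at 21.4 CPM, mural-like at 19.1, early nephron-like at 18.7, endothelium-like at 14.0, leukocyte-like at 13.7, distal tubule-like at 12.6, ureteric epithelium-like at 11.8, proximal tubule-like at 10.0, loop of Henle-like at 8.45 and intercalated-like nuclei at 7.08 CPM. Below nephron progenitor-like nuclei no neighbours differed beyond counting error. At P3 its level in podocyte-like nuclei was 98.5 CPM (80.0 to 120; 98 UMIs), 4.42 times that in the joint class (22.3 CPM) and 4.83 times that in interstitium-like nuclei (20.4 CPM). The other classes ran from 29.2 CPM on 3 UMIs in mural-like nuclei down to 3.91 CPM in distal tubule-like nuclei.

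Tcf21 was shared between podocyte-like and interstitium-like nuclei. At E18.5 it stood at 276 CPM (256 to 297; 698 UMIs) in the former and 223 CPM in the latter, a ratio of 1.24 (1.14 to 1.34), and at P3 at 214 CPM (186 to 245; 213 UMIs) and 222 CPM, which did not differ beyond counting error (interstitium-like over podocyte-like 1.04, 0.900 to 1.20). No other named class came near these levels. The next was leukocyte-like nuclei at both ages, with 90.5 and 47.4 CPM, and the lowest were proximal tubule-like nuclei at E18.5 (47.5 CPM) and ureteric epithelium-like nuclei at P3 (16.4 CPM). Nephron progenitor-like nuclei, second for Wt1, had 64.5 CPM of Tcf21 at E18.5, and the joint class had 35.9 CPM at P3. The antisense gene Gm10824 had the same leading classes, with 71.6 and 66.8 CPM in podocyte-like and interstitium-like nuclei at E18.5 and 41.2 and 53.1 CPM at P3. The nuclei of unnamed clusters, left out of these orders, held all 5 genes, with 177 and 200 CPM of Wt1 and 120 and 110 CPM of Tcf21 at E18.5 and P3. Their low-depth cluster of 2804 nuclei at E18.5 had 56.7 CPM of Foxc2 (215 UMIs) and 49.1 CPM of Foxc1 (186 UMIs). Podocyte-like nuclei had 54.6 CPM of Foxc2, so for this gene they led among named classes only. Their 50.3 CPM of Foxc1 lay just above the level of the low-depth cluster. The low-depth cluster at P3 had 35.8 and 32.9 CPM, against 98.5 and 76.4 CPM in podocyte-like nuclei.

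**Figure D1:**
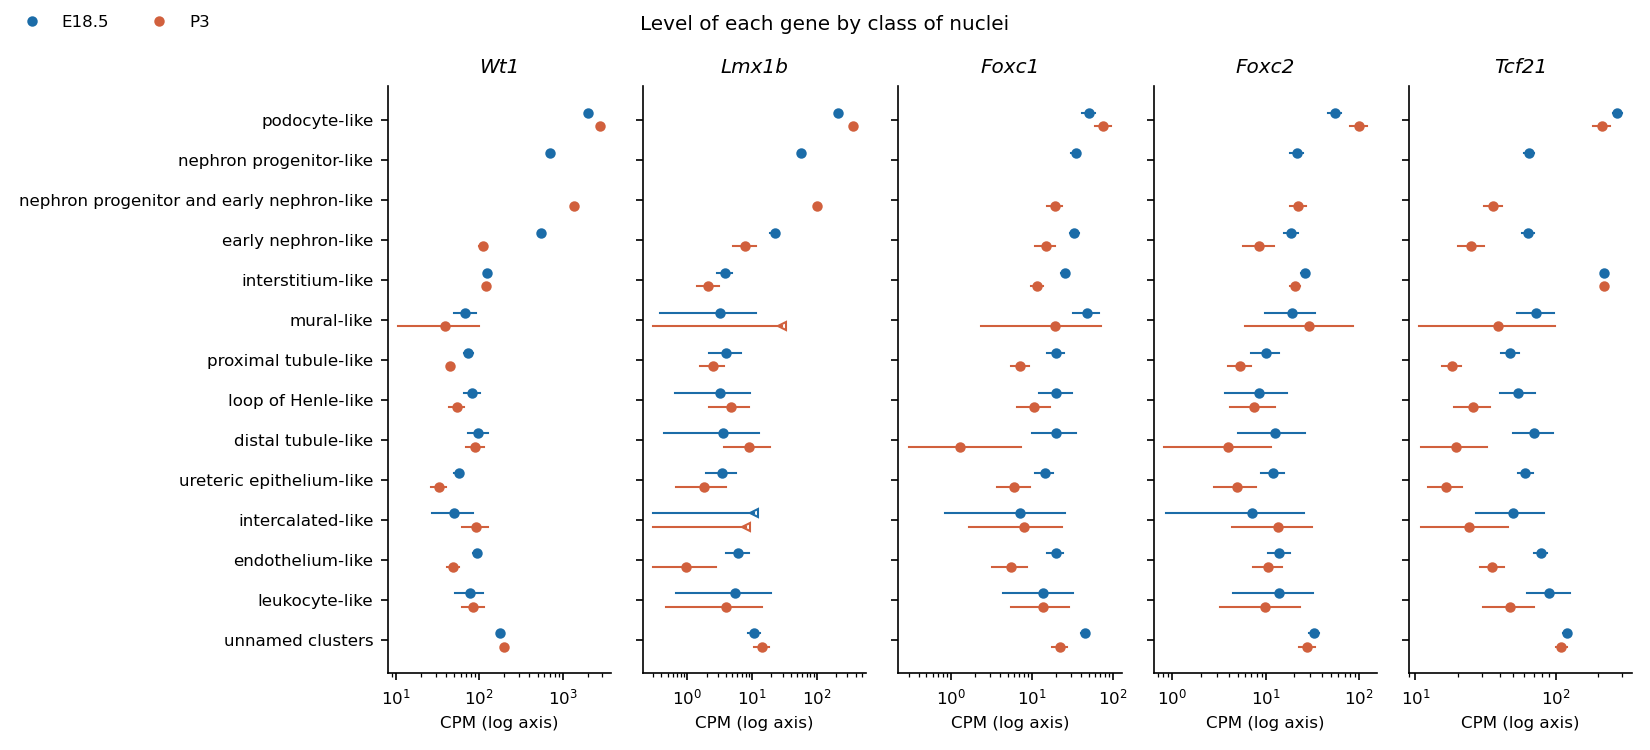
Level of each gene (CPM on a log axis) in each class of nuclei at E18.5 (blue) and P3 (orange), with exact 95% Poisson intervals as lines, drawn from 0.3 CPM where they reach lower, and open triangles at the level that 3 counts would give where a class had 0 UMIs. Wt1 and Lmx1b lead in podocyte-like nuclei at both ages, and Tcf21 is nearly level between podocyte-like and interstitium-like nuclei.

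Set against all other nuclei of the same library together, the 5 members differed in how far their podocyte-like level lay above the rest. Lmx1b was 13.8 times higher (12.4 to 15.4) in podocyte-like than in other nuclei at E18.5 and 24.0 times (21.1 to 27.3) at P3, and Wt1 7.78 times (7.53 to 8.03) and 11.6 times (11.1 to 12.1). Foxc2 was 2.53 times higher (2.10 to 3.02) and 6.86 times (5.48 to 8.49), Foxc1 1.73 times (1.43 to 2.07) and 6.53 times (5.06 to 8.32), and Tcf21 2.31 times (2.14 to 2.50) and 2.41 times (2.09 to 2.77). The level in the other nuclei moved little for Wt1 (260 and 239 CPM) and Lmx1b (15.7 and 15.4 CPM), while for Foxc1 it was 29.1 CPM at E18.5 and 11.7 CPM at P3 and for Foxc2 21.6 and 14.4 CPM.

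A gene was counted as higher when its fold, with 10 CPM added to both levels, was at least 2, among genes with at least 10 CPM in either group. At E18.5, 4 of 5 members were higher in podocyte-like nuclei, where 3.63% of all 11531 genes were, and at P3 all 5, where 4.4% of 11255 genes were. None was lower, where 8.18% and 13.4% of genes were. The member not counted was Foxc1 at E18.5, with a fold of 1.54 after the addition. The median fold of the members was 2.21 and 4.45, that of all genes 0.862 and 0.841. The median gene with at least 50 UMIs on both sides had a ratio of 0.881 at E18.5 and 0.931 at P3, and relative to it the ratios were 8.83 and 12.5 for Wt1, 15.7 and 25.8 for Lmx1b, 1.96 and 7.01 for Foxc1, 2.87 and 7.36 for Foxc2, and 2.62 and 2.59 for Tcf21. Podocyte-like nuclei were in part recognised by genes that are known targets of these factors, so these differences describe the class and are no independent evidence for it.

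Within the nephron progenitor- and early nephron-like nuclei, clustered again on their own, Wt1 and Lmx1b were mostly high in the same subclusters. At E18.5 a subcluster of 1157 nuclei led by Lsamp, Bmper and Dcc had 865 CPM of Wt1 and 62.6 CPM of Lmx1b, and 1 of 1236 nuclei led by Dync1i1 had 670 and 57.2 CPM. A subcluster of 567 nuclei led by Ephb1 and Lef1, with Lhx1 of the early nephron among its leading genes, had 752 CPM of Wt1 and 38.6 CPM of Lmx1b. Both genes were low where proximal tubule markers were raised, in a subcluster of 394 nuclei with 92.5 CPM of Wt1 and 6.40 CPM of Lmx1b. At P3 the highest levels again lay in a subcluster led by Lsamp, Bmper and Dcc (363 nuclei, 1724 CPM of Wt1 and 126 CPM of Lmx1b), with 1545 and 102 CPM in a subcluster of 391 nuclei that has Ndnf among its leading genes and 514 and 67.1 CPM in 1 of 128 nuclei led by Alk and Lhx1. The remaining subclusters were lower, down to 24.2 CPM of Wt1.

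Foxc1 picked out a different group. In a subcluster of 214 nuclei at E18.5 led by Chrm3, Tafa1 and Tmem132c, Foxc1 reached 74.9 CPM (56.6 to 97.3), 2.34 times (1.74 to 3.09) its level in the rest of the nephrogenic nuclei, with Wt1 at 985 CPM (915 to 1059), the highest of that age, and Foxc2 at 32.1 CPM, 1.64 times (1.04 to 2.50) the rest. Lmx1b and Tcf21 were not raised there (ratios 0.855, 0.559 to 1.26, and 0.893, 0.642 to 1.21). In this subcluster 5 of 14 podocyte markers were raised but none was among its 10 leading genes, and it was left unnamed.

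Among interstitium-like nuclei the Wt1 and Tcf21 levels were distributed differently. Tcf21 at E18.5 ranged, among subclusters of at least 100 nuclei, from 69.3 CPM (52.3 to 90.0) in 258 nuclei led by Lrp1b and Ntn1 to 305 CPM (283 to 328) in 792 nuclei led by Unc13c. The cortical stroma subcluster led by Megf11 (1151 nuclei) had 242 CPM of Tcf21 and 65.1 CPM of Wt1. At P3 an interstitium-like cluster of 36 nuclei led by Sntg1 and Ebf2 had 22.1 CPM of Tcf21. Among subclusters of at least 100 nuclei Tcf21 was more even at that age. It ran from 156 CPM in the medullary subcluster (207 nuclei) to 288 CPM in 235 nuclei led by Gpr176 and Ak5. Wt1 spanned, over subclusters of the same size, 48.7 CPM in 161 nuclei led by Unc13c, 51.6 CPM in the medullary, 56.2 CPM in the cortical (617 nuclei) and 127 CPM in the papillary subcluster to 220 CPM in 374 nuclei led by Rspo3, 264 CPM in 236 led by Sema3e and 269 CPM in 128 led by the mitotic gene Kif11. The highest interstitial Wt1 level, 883 CPM (663 to 1152), was that of 14 nuclei at E18.5 led by Muc16 and Pkhd1l1, genes known from mesothelium.

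**Figure D2:**
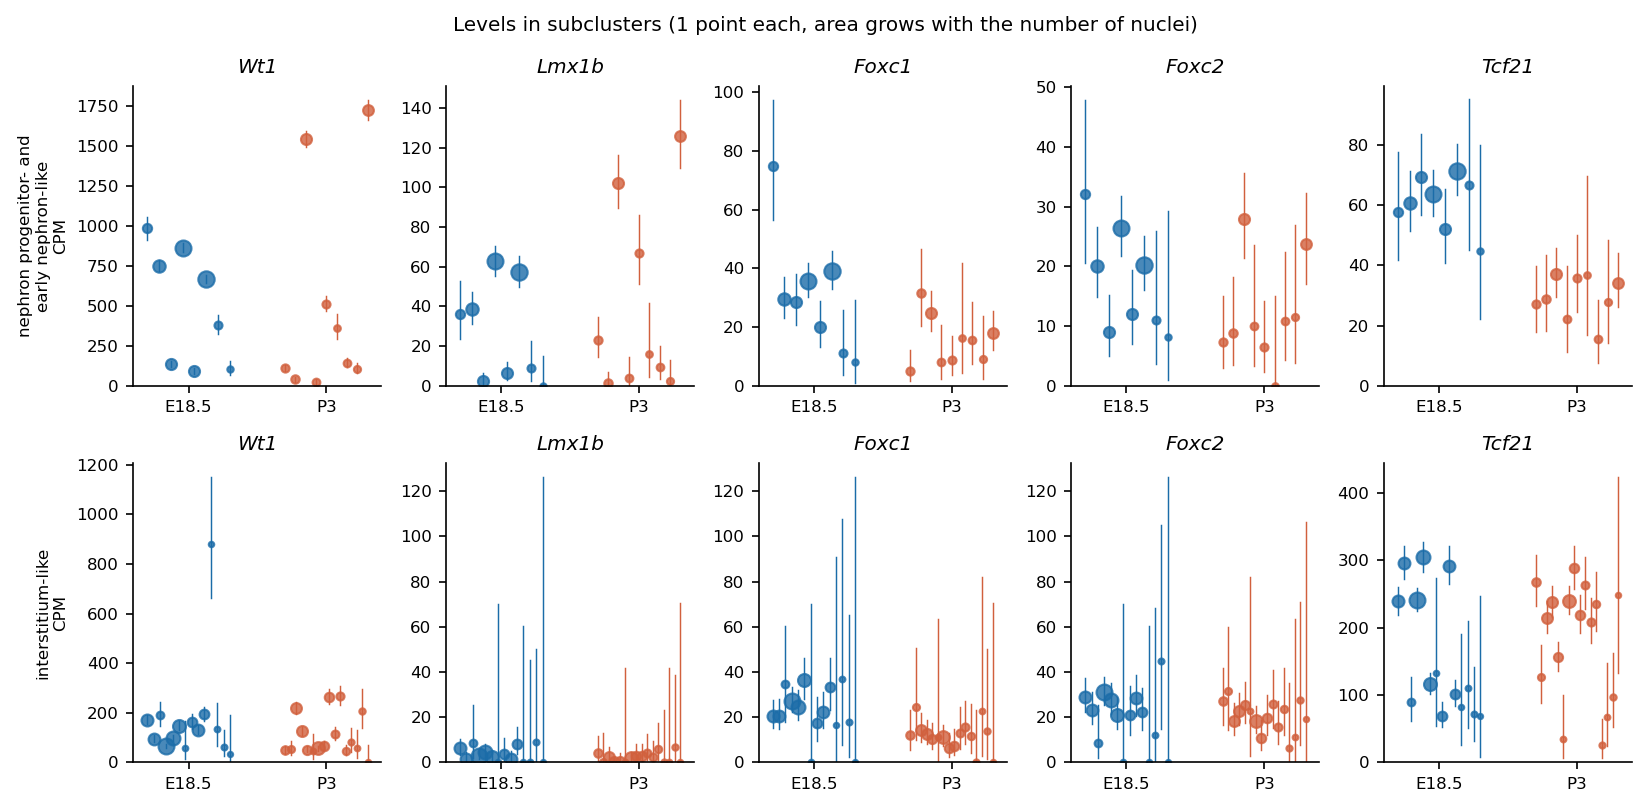
Level of each gene (CPM) in subclusters of nephron progenitor- and early nephron-like nuclei (top row) and of interstitium-like nuclei (bottom row) at E18.5 (blue) and P3 (orange), 1 point per subcluster with its exact 95% Poisson interval. Wt1 and Lmx1b are mostly high in the same nephrogenic subclusters, 1 E18.5 subcluster stands out for Foxc1 at 74.9 CPM, and Tcf21 is high in most large interstitial subclusters.

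In single nuclei, detection of most members was limited by depth, so 1000 UMIs were drawn at random from each nucleus before shares were taken. Wt1 was then found in 83.5% (80.7 to 86.1) of podocyte-like nuclei at E18.5 and 87.0% (81.6 to 91.2) at P3, against 6.30% and 4.42% of proximal tubule-like nuclei, a class taken as lacking these genes (median depth 4025 and 6255 UMIs). Lmx1b was found in 18.7% (16.0 to 21.7) and 29.5% (23.4 to 36.2) against 0.370% and 0.155%, and Tcf21 in 22.1% (19.2 to 25.2) and 17.9% (12.9 to 23.8) against 4.32% and 1.78%. Foxc2 was found in 6.56% (4.89 to 8.58) and 4.83% (2.34 to 8.70) against 1.36% and 0.620%. These shares all lay above the background of this 1 class. For Tcf21 at E18.5 it was the lowest named class over all UMIs, at 47.5 CPM, against 90.5 CPM in leukocyte-like nuclei. For Foxc1 at E18.5 the thinned shares had overlapping intervals, 4.95% (3.51 to 6.76) against 2.72% (1.71 to 4.08), while over all UMIs its podocyte-like level was 2.55 times (1.89 to 3.47) the proximal tubule-like one. At P3 its share was 5.80% (3.03 to 9.91) against 0.698%. Without thinning, Wt1 was found in 98.1% and 99.0% of podocyte-like nuclei, Lmx1b in 46.6% and 74.9%, Foxc1 in 15.4% and 29.5%, Foxc2 in 17.7% and 30.0%, and Tcf21 in 55.6% and 59.9%. In interstitium-like nuclei the thinned share was 19.1% and 20.3% for Tcf21 and 10.3% and 10.2% for Wt1.

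After thinning, 91.0% and 94.2% of podocyte-like nuclei had at least 1 of the 5 genes and 37.5% and 42.0% at least 2. At least 2 were found in 6.84% and 8.10% of nephron progenitor- and early nephron-like nuclei, 3.25% and 3.61% of interstitium-like nuclei and 1.36% and 0.388% of proximal tubule-like nuclei. All 5 were seen together, without thinning, in 5 of 747 podocyte-like nuclei at E18.5 and 14 of 207 at P3. They were also seen together in 3 of 1508 nephron progenitor- and early nephron-like nuclei at P3. These unthinned counts depend on depth, which differed between the ages. Within podocyte-like nuclei the number of nuclei with both members of a pair was set against that given by the product of their shares, and the interval of this ratio held 1 for every pair at both ages except Foxc1 with Foxc2 at P3. These intervals do not show independence, since the high share of Wt1 leaves its ratios little room and several rare pairs had few nuclei, as for Foxc1 with Foxc2 at E18.5 (0.824, 0.0998 to 2.98). At P3 that pair was seen in 3 nuclei where 0.580 was given by the shares (5.18 times, 1.07 to 15.1), and at 2000 UMIs per nucleus in 1 where 4.05 was given, so no excess can be read from it. In the nephrogenic nuclei, which mix several subclusters, Wt1 and Lmx1b were seen together in 87 nuclei where 65.4 was given at E18.5 (1.33 times, 1.07 to 1.64) and in 67 where 39.9 was given at P3 (1.68 times, 1.30 to 2.13).

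The podocyte-like nuclei fell into larger clusters led by Magi2, Ptpro and Nphs1 (536 nuclei at E18.5, beside a small cluster of 33, and 146 at P3) and a smaller cluster with Ndnf among its 2 leading genes (178 and 61 nuclei). Against the larger cluster of the same age, the Ndnf-led cluster had less of the slit diaphragm gene Nphs1 (0.275 times at E18.5 and 0.328 times at P3), and more of Pax8 (5.09 and 7.48 times) and Pax2 (3.12 and 3.62 times), which mark earlier nephron epithelium. For other E18.5 data the study describes its podocyte cluster as most likely including parietal epithelial cells. A list of 4 parietal epithelium markers summed to 121 and 137 CPM in all podocyte-like nuclei at E18.5 and P3. Akap12 made up most of this sum, at 98.9 and 113 CPM, and stood higher in interstitium-like nuclei, at 303 and 317 CPM. Cldn1, Dkk3 and Lad1 were each at or below 13.1 CPM in podocyte-like nuclei. Whether the Ndnf-led cluster holds parietal epithelial cells was not tested. The members divided along the contrast of the Ndnf-led and the larger cluster. Wt1 was 1.50 times higher (1.41 to 1.60) in the Ndnf-led cluster at E18.5, at 2757 against 1835 CPM, and 1.35 times (1.25 to 1.45) at P3, at 3357 against 2494 CPM. Lmx1b was 0.719 times (0.571 to 0.898) and 0.734 times (0.574 to 0.930) the level of the larger cluster, at 174 against 242 CPM and 296 against 404 CPM. Tcf21 had ratios of 0.795 (0.650 to 0.965) and 0.786 (0.571 to 1.07), and the intervals of Foxc1 (1.12, 0.713 to 1.72, and 0.911, 0.533 to 1.51) and Foxc2 (0.718, 0.441 to 1.13, and 0.799, 0.493 to 1.26) held 1. None of the 5 members passed 2-fold in either direction at either age, where 3.37% of 10913 genes were higher and 2.4% lower in the Ndnf-led cluster at E18.5, and 9.35% of 10342 genes were higher and 5.46% lower at P3. The median gene was itself 1.16 and 1.26 times higher in that cluster, and relative to it Wt1 was at 1.30 and 1.07, Lmx1b at 0.620 and 0.582, and Tcf21 at 0.686 and 0.624.

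Podocyte-like nuclei were also divided by their share of UMIs from the 14 podocyte markers, into 3 groups each of 249 nuclei at E18.5 and 69 at P3. This division is not independent of the Ndnf contrast. Of the 14 markers, 9 at E18.5 and 12 at P3 were at least 2-fold lower in the Ndnf-led cluster. The marker share ran from 0.398% to 4.48% in the lowest and from 7.51% to 16.7% in the highest group at E18.5, and from 0.163% to 6.11% and 9.26% to 15.1% at P3. These groups are ranges and not types, since 188 and 62 nuclei lay within 10% of a limit. Wt1 was 2482, 1854 and 1744 CPM from the lowest to the highest group at E18.5, and 2993, 2643 and 2660 CPM at P3. The ratio of highest to lowest was 0.703 (0.657 to 0.752) and 0.889 (0.814 to 0.971). Lmx1b went the other way, with 167, 216 and 262 CPM at E18.5 and 282, 406 and 424 CPM at P3, a ratio of 1.57 (1.27 to 1.95) and 1.50 (1.16 to 1.95). The E18.5 ratio of Tcf21 was 1.27 (1.05 to 1.53), and its P3 ratio, 1.21 (0.858 to 1.70), lay within counting error. For Foxc1 (0.939, 0.607 to 1.45, and 1.66, 0.901 to 3.16) and Foxc2 (1.21, 0.792 to 1.85, and 1.36, 0.828 to 2.28) no difference was detectable at this depth. Pax8 had ratios of 0.169 and 0.112 over the same groups. Marker UMIs are part of each total, so a larger marker share lowers the CPM of every other gene. The median marker share in the lowest and highest group was 1.94% and 9.16% at E18.5 and 2.03% and 10.8% at P3. Its part in the Wt1 ratios, of which that at P3 is close to 1, was not tested.

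**Figure D3:**
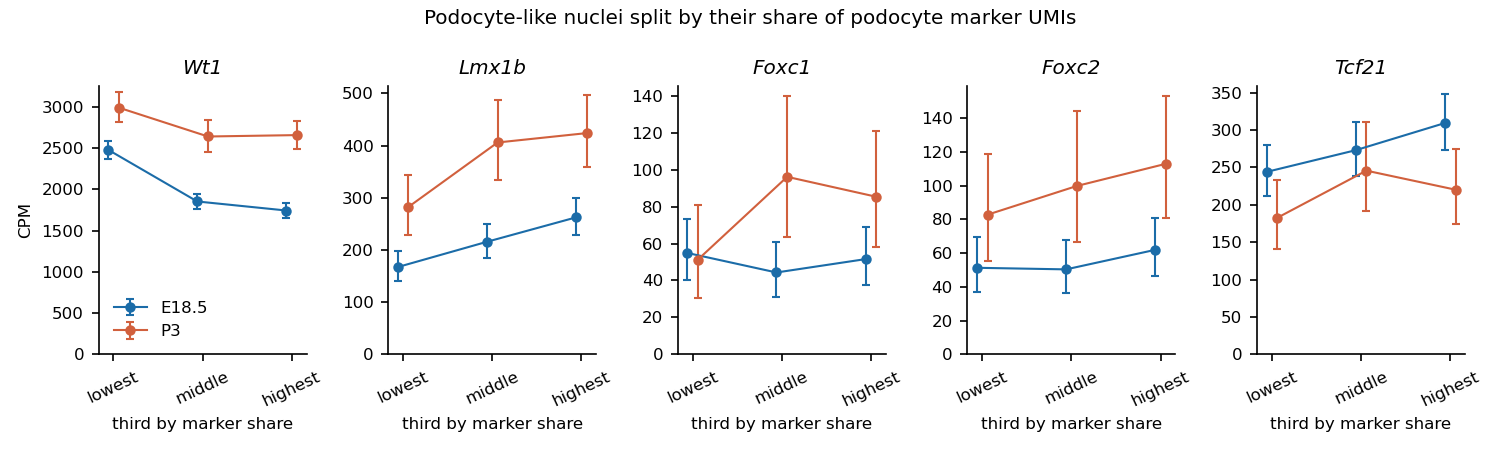
Level of each gene (CPM) in podocyte-like nuclei ordered into 3 groups of equal size by the share of their UMIs from 14 podocyte markers, at E18.5 (blue) and P3 (orange), with exact 95% Poisson intervals. Wt1 is highest in the lowest group at both ages, and Lmx1b is lowest there. A larger marker share lowers the CPM of other genes, and its part in the Wt1 levels was not tested.

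Between the ages, 4 of the members stood higher and Tcf21 lower in podocyte-like nuclei at P3 than at E18.5, all by less than 2-fold. The P3 level of Lmx1b was 1.71 times that at E18.5 (1.49 to 1.95), of Foxc2 1.80 times (1.38 to 2.35), of Foxc1 1.52 times (1.13 to 2.04), of Wt1 1.37 times (1.31 to 1.44) and of Tcf21 0.775 times (0.662 to 0.905). With 10 CPM added, 0 of 5 members passed 2-fold in either direction, where 0.861% of 10573 genes were higher and 4.87% lower. The median gene was at 1.06, and relative to it the ratios were 1.61 for Lmx1b, 1.70 for Foxc2, 1.44 for Foxc1, 1.30 for Wt1 and 0.732 for Tcf21. The median fold of the members was 1.43 and that of all genes tested 0.934. By default, the Cell Ranger release named in the E18.5 matrix header counts intronic reads and the one in the P3 header does not. Whether defaults were used is not stated, and intron counting cannot be told apart from age here, for Wt1 and Lmx1b with their long introns or for the single-exon Foxc1 and Foxc2, whose share of all UMIs it would move too. The Ndnf-led cluster held 178 of 747 podocyte-like nuclei at E18.5 and 61 of 207 at P3.

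In other classes the values were mostly equal or lower at P3, and the differences between classes were not tested. In interstitium-like nuclei Wt1 (0.978 times, 0.914 to 1.05) and Tcf21 (0.993 times, 0.944 to 1.04) were at nearly the same level at both ages, while Foxc1 was at 0.454 times (0.373 to 0.549), Lmx1b at 0.564 times (0.344 to 0.902) and Foxc2 at 0.783 times (0.667 to 0.917) its E18.5 level. With 10 CPM added to both levels, no counted member passed 2-fold in these nuclei (Foxc1 at 0.607), where 0.642% of genes were higher and 4.94% lower. Lmx1b, under 10 CPM at both ages, was not among the genes counted. The median gene there was at 0.913, which turns the direction for the first pair of genes (1.07 for Wt1 and 1.09 for Tcf21 relative to it). The interstitium-like class pools clusters that differ in level. At E18.5 the cluster led by Zfp536 had 275 CPM of Tcf21 and 88.5 CPM of Wt1, and that led by Gria1 had 111 and 162 CPM. At P3 the clusters led by Zfp536 and Fhl2 had 225 and 224 CPM of Tcf21 and 113 and 130 CPM of Wt1. The class also held an E18.5 cluster of 411 nuclei with Kcnd2, Adamts17, Apcdd1 and Csmd1 among its leading genes (227 CPM of Tcf21, 207 of Wt1). A P3 cluster of 199 nuclei with the same genes among its leading genes was unnamed and outside the class (134 CPM of Tcf21, 77.9 of Wt1). The part of this mix in the pooled ratios was not tested. In proximal tubule-like nuclei all 5 ratios were below 1, with Lmx1b within counting error (0.618, 0.305 to 1.30) and Wt1 at 0.612 (0.523 to 0.718). Tcf21, at 0.383, passed 2-fold after the addition (0.490), where 5.12% of genes were lower and 2.37% higher. Foxc1, at 0.365, did not (0.579). In ureteric epithelium-like nuclei Wt1 was at 0.571 and Tcf21 at 0.270. Tcf21 passed 2-fold after the addition (0.373), where 4.61% of genes were lower and 1.63% higher. Foxc1 and Foxc2, at 0.424 and 0.412, did not (0.660 and 0.682). In proximal tubule-like nuclei, the class read above as background, the thinned share with Tcf21 moved along, from 4.32% to 1.78%, and its part in the ratios was not tested.

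**Figure D4:**
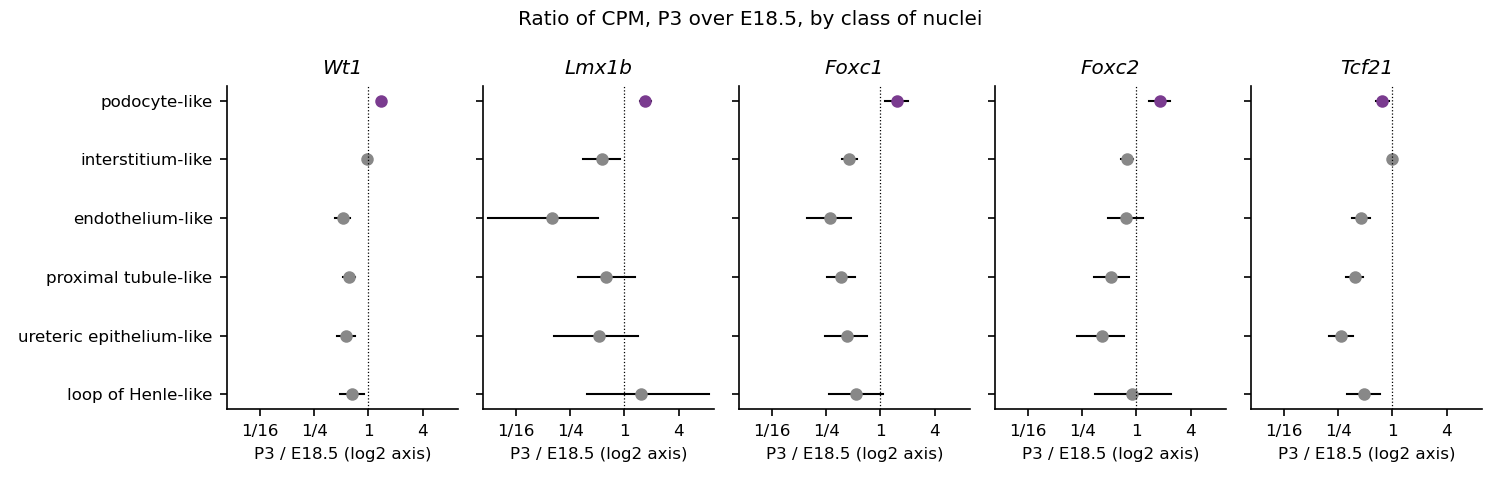
Ratio of the level at P3 to that at E18.5 (log2 axis) for each gene in 6 classes of nuclei, with exact 95% intervals for counting error as lines, podocyte-like nuclei in purple and a dotted line at 1. In podocyte-like nuclei 4 genes lie above 1 and Tcf21 below, and 1 library per age gives no error between animals.

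Other transcription regulators of podocytes and their relatives were read from a list of 20, of which 15 had at least 10 CPM in either group. At E18.5, 2 were higher and 1 lower in podocyte-like nuclei, and at P3, 3 were higher and 1 lower, where 3.63% and 4.4% of all genes were higher and 8.18% and 13.4% lower. The corepressor gene Tle4 was 5.64 and 4.70 times higher. Foxd2, a forkhead gene, was 13.5 times higher at P3 and 3.39 times at E18.5, where it did not pass 2-fold after the addition of 10 CPM. Pax2 was the gene that was lower, at 0.266 and 0.276 times. Pax8 (1.30 and 0.917), Tead1 (1.28 and 1.24), Zhx2 (1.73 and 1.53) and the glucocorticoid receptor gene Nr3c1 (0.565 and 0.644) lay within 2-fold. None of 14 tested regulators passed 2-fold between the ages in podocyte-like nuclei, where 0.861% of all genes were higher and 4.87% lower. In the Ndnf-led cluster, 3 of 14 were higher and 1 lower at E18.5, and 4 higher and 2 lower at P3, beside 3.37% and 9.35% of all genes higher and 2.4% and 5.46% lower. Along that contrast Hey1, a target of Notch signalling, was 3.42 and 4.90 times higher, and Foxd2 was at 0.249 and 0.328 times.

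**Figure D5:**
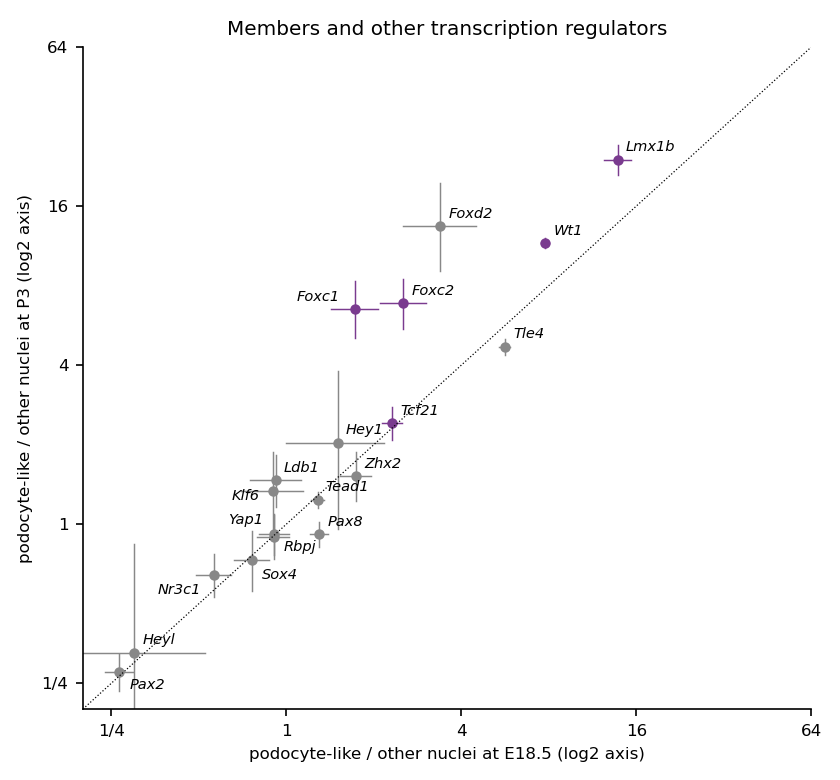
Ratio of the level in podocyte-like to that in other nuclei at E18.5 (horizontal) and P3 (vertical), both on log2 axes, for the 5 members (purple) and other transcription regulators with at least 10 CPM in either group at both ages (grey), with exact 95% intervals for counting error and a dotted line of equality. Wt1, Lmx1b, Foxc1, Foxc2 and Foxd2 lie above the line, and Tcf21 lies close to it.

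Of 12 genes that textbooks give as targets of these factors, such as Nphs1, Podxl and Col4a3, 11 were tested. At E18.5, 9 were higher in podocyte-like nuclei, and at P3 all 11, beside the 3.63% and 4.4% of all genes given above. The 2 others at E18.5 were Cd2ap, an adaptor of the slit diaphragm, at 1.96 times, and Sulf1, a heparan sulfatase, at 1.45 times. Sulf1 was also the target that passed 2-fold between the ages, at 2.19 times. In the Ndnf-led cluster 7 of 12 targets were lower and 1 higher at E18.5, and 7 of 11 lower at P3, beside 2.4% and 5.46% of all genes lower. Several of these targets are podocyte markers that defined the class, and their counts are a description of it. Of 8 neighbouring or antisense genes, 5 were tested. Wt1os, transcribed from the Wt1 locus, was 8.11 times higher in podocyte-like nuclei at E18.5, close to Wt1, and passed 2-fold at P3 too, as did Gmds, the neighbour of Foxc1, at 2.35 and 2.27 times. Foxf2, a forkhead gene beside Foxc1, had 0 UMIs in podocyte-like nuclei. Between the ages Wt1os did not follow Wt1, with a ratio of 0.949 (0.891 to 1.01) in podocyte-like nuclei against 1.37 for Wt1, whereas in the Ndnf-led cluster both were higher, Wt1os by 1.53 and 1.95 times.

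The likeness of patterns was measured over the 52 clusters of both libraries, as Pearson's r of log2(CPM + 10), among 10398 genes with at least 50 CPM in some cluster. Clusters share a library and differ in depth, so r is a description. Wt1 was most like Wt1os (0.973), its fellow member Lmx1b (0.924) and Raver2 (0.902), and Lmx1b most like Wt1 (0.924), Wt1os (0.908) and the polarity gene Crb2 (0.904). Tcf21 was most like Gm10824 (0.909), which overlaps it, then the cell cycle inhibitor gene Cdkn1c (0.811) and Emilin1 (0.796). Foxc2 was most like Crb2 (0.800), Tspan2 (0.797) and Plat (0.781), and Foxc1 most like Rad21 (0.741) and Foxd2os (0.729). Among the members, Foxc1 and Foxc2 were less like each other (0.638) than each was like Wt1 (0.725 and 0.712), and Tcf21 was closer to Foxc2 (0.753) than to Wt1 (0.596) or Lmx1b (0.511). Foxc1 and Foxc2 reached at most 78.7 and 105 CPM in any cluster, against 3357 CPM for Wt1. The part of counting error in these values of r was not tested.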

How the data were processed

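Single-nucleus RNA of 1 library at E18.5 and 1 at P3 was analysed. The authors deposited counts, that is unnormalized UMIs for every gene and barcode, made with 10x Genomics Cell Ranger from reads of a NextSeq 2000. The matrix headers name release 7.0.0 for the E18.5 library and 5.0.1 for the P3 library, and the submitters' processing notes name 5.0.1 and mm10 for both. Intron counting and strand are not given in the sources used here, and the default for introns differs between these releases. Of 32285 identifiers, 32158 were found in GENCODE M21.

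Of 21600 and 12216 barcodes, 112 and 0 had log UMIs or genes under the median by over 3 median absolute deviations, and 220 and 451 exceeded a mitochondrial limit of 0.602% and 0.575%, some failing both, which left 21270 and 11765. Scrublet in scanpy 1.11.5 (expected rate 0.1) called 16.6% and 17.4% of these doublets, which were removed. Clustering used scran 1.30.0, scater 1.30.1 and igraph 2.1.4 in R 4.3.3 (2000 variable genes, 50 components, 10 neighbors, Walktrap), without 34 genes. Of these, Gm10824 was added, and the naming rules set, after files or clusters had been seen. A marker was raised with at least 10 UMIs and a fold of 2 with 10 CPM added, and 3 raised markers were needed for a name. The class early nephron-like rested on different clusters at the 2 ages and was not compared between them. The interstitium-like class was compared, though its clusters were not matched between the ages. Sums and exact intervals came from Python 3.11.15, numpy 2.4.6, scipy 1.17.1 and pandas 2.3.3, and plots from matplotlib 3.10.9. The interval method was tested on simulated sums drawn with Poisson error, which it assumes, so spread between nuclei was not part of that test. The members, the lists of markers, regulators, targets and neighbours, and the comparisons were chosen with earlier results of these data known. The named genes are the members, these lists, leading genes of clusters and the 3 genes most like each member, and some genes that these rules name are not reported here. Alternatives were scaling by the median gene, the mean of single-nucleus CPM, other clusterings and filters, doublets kept and another depth of thinning.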

Additional observations from a re-analysis of the deposited data

Results flagged for a closer look

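In podocyte-like nuclei the P3 level lay above the E18.5 level for Wt1, Lmx1b, Foxc1 and Foxc2, and in several other classes the same gene moved the opposite way with an interval that did not reach 1. For Wt1 the P3 to E18.5 ratio was 0.523 in endothelium-like, 0.612 in proximal tubule-like, 0.571 in ureteric epithelium-like and 0.651 in loop of Henle-like nuclei. For Lmx1b it was 0.564 in interstitium-like nuclei. For Foxc1 it was 0.454 in interstitium-like, 0.279 in endothelium-like, 0.365 in proximal tubule-like and 0.424 in ureteric epithelium-like nuclei, and for Foxc2 0.783, 0.527 and 0.412 in interstitium-like, proximal tubule-like and ureteric epithelium-like nuclei. Ratios with 3 or fewer UMIs at an age are not among these, for example 0.157 for Lmx1b in endothelium-like nuclei (3 UMIs at P3) and 0.0658 for Foxc1 in distal tubule-like nuclei (1 UMI at P3). Several of the listed ratios rest on low levels. From E18.5 to P3, Foxc1 went from 19.7 to 7.20 CPM in proximal tubule-like nuclei, the class read above as background. Its levels were 19.6 and 5.47 CPM in the endothelial and 14.4 and 6.09 CPM in the ureteric class. Lmx1b stood at 3.78 and 2.13 CPM in the interstitial class, under the 10 CPM used for the 2-fold counts. The Wt1 levels were higher, 57.0 to 93.5 CPM at E18.5. The part of background was not tested. With 1 library per age the differences between classes were not tested.

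Barcodes outside the quality limits, which entered no comparison, also held UMIs of these genes above the number that a count of 0 allows. At E18.5 the 330 such barcodes had 71 UMIs of Wt1, 22 of Foxc1, 18 of Foxc2 and 73 of Tcf21. At P3 the 451 such barcodes had 141 UMIs of Wt1, 5 of Lmx1b, 12 of Foxc1, 23 of Foxc2 and 82 of Tcf21.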

How the results depend on the processing

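No paired analysis was possible because each age is 1 library without replicates, and no library could be left out. Of 80 recomputed podocyte-like to other ratios all stayed on the same side of 1, and 64 stayed within the counting interval. For Wt1 at E18.5 (7.78) the others were 7.36 with unnamed clusters left out, an alternative chosen after seeing the data, 8.14 as a mean of single-nucleus CPM, 6.16 with doublets kept and 6.19 with 20 neighbors. Relative to the median gene, also chosen after seeing the data, Wt1 gave 8.83 and Lmx1b 15.7 at E18.5, Tcf21 2.62 at E18.5, and Wt1 12.5 at P3. With doublets kept, Lmx1b gave 10.5 at E18.5 and 17.2 at P3, and Wt1 9.17 at P3. As means of single-nucleus CPM, Tcf21 gave 2.13 at E18.5, and at P3 Wt1 gave 11.1, Foxc1 4.98, Foxc2 4.68 and Tcf21 2.08. All 35 recomputed age ratios kept their side of 1, and 2 moved, both of Wt1 (1.37), to 1.30 relative to the median gene and 1.57 with 20 neighbors.

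All 20 shares moved with the depth of thinning, by its construction. At 2000 UMIs and without thinning, the E18.5 shares of podocyte-like nuclei were 95.6% and 98.1% for Wt1, 33.2% and 46.6% for Lmx1b, 8.60% and 15.4% for Foxc1, 10.9% and 17.7% for Foxc2, and 41.3% and 55.6% for Tcf21. At P3 they were 97.5% and 99.0%, 48.2% and 74.9%, 13.1% and 29.5%, 15.6% and 30.0%, and 38.2% and 59.9% in the same order of genes. The pair Foxc1 and Foxc2 at P3 reversed, from 5.18 to 0.247 times the expected number at 2000 UMIs, on 3 and 1 nuclei. The cause of the other moves was not tested. With doublets kept, podocyte-like nuclei numbered 991 and 278, and they included clusters of 228 and 59 nuclei at E18.5 and of 40 at P3, of which 75.9%, 64.4% and 92.5% were called doublets.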
